A study of Canis lupus familiaris with 34 samples.

Results

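Genes of cholesterol and fatty acid synthesis, with their regulators and the carriers that move and store cholesterol, were followed in canine tumor cells on Affymetrix Canine_2 arrays. Their members were taken from a list of 35 named genes. A probe set counted as a gene's own if the array annotation gave it exactly 1 gene symbol equal to the name, and where a gene had several, the probe set with the highest mean over all arrays stood for it. By this rule 34 of the 35 genes had a probe set, out of 15115 genes with such a probe set on the array, and IDI1 was not analysed here. They fall into 6 genes of the mevalonate steps, 11 of the steps from squalene to cholesterol, 4 regulators, 7 genes of fatty acid synthesis and desaturation, and 6 of cholesterol transport and storage.

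The 34 arrays held cells from dogs with 8 diagnoses, 1 array for each line, culture or primary sample. Hemangiosarcoma, a tumor of cells that form blood vessels, was represented by 10 cell lines. Of these, 6 came from golden retrievers and the others from a Rottweiler, a golden retriever crossed with a Great Pyrenees, a Portuguese Water Dog and a dog labelled Dalmation. Splenic hematoma, a lesion that is not malignant, was represented by 3 low passage cultures, from a golden retriever, a Standard Poodle and a Keeshond. Another 5 lines came from osteosarcomas of golden retrievers. All 18 of these samples were cultured cells. The paper reports that the earliest available passages were used for tumors, but does not name the osteosarcoma lines there. The other 16 samples were primary cells that had not been cultured, from 1 acute lymphoblastic leukemia, 2 chronic lymphocytic leukemias, 6 diffuse large B cell lymphomas, 1 marginal zone B cell lymphoma and 6 T-zone lymphomas. Of these, 15 came from golden retrievers and 1, the acute leukemia, from a golden retriever mix, so that breed was mixed in hemangiosarcoma and hematoma only. No sample carried an engineered allele or a drug treatment in the labels.

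Cells build cholesterol from acetyl-CoA through mevalonate, farnesyl diphosphate, squalene and lanosterol. When sterols in the endoplasmic reticulum run low, SCAP escorts the transcription factors SREBF1 and SREBF2 to the Golgi apparatus, where proteases release their active parts, and INSIG1 holds the complex back when sterols are plentiful. SREBF2 is best known for turning on the cholesterol genes and SREBF1 for the fatty acid genes. Excess cholesterol is esterified by SOAT1 or passed out of the cell by ABCA1 and ABCG1, and NPC1 and NPC2 carry it out of lysosomes.

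Values are log2 intensities, so that a difference of 1 between groups is a doubling. They ranged from 2.03 to 14.98 and the array medians from 5.57 to 5.77. Several properties of the arrays moved with the groups. The mean of the hybridization controls, RNAs spiked into every sample, lay between 8.95 and 9.54 on the 10 hemangiosarcoma arrays and between 9.66 and 10.57 on the 5 osteosarcoma arrays, with no overlap, while the 3 hematoma arrays ran from 9.15 to 9.92 and the 16 primary arrays from 9.78 to 11.12. The difference between 3' and 5' actin probe sets, a measure of RNA integrity, overlapped among the cultured groups. It ran from -0.77 to 0.69 on the cultured arrays and from -0.59 to 1.20 on the primary arrays. Of 10 endothelial marker genes, 3 had a mean above the array median in hemangiosarcoma, 3 in hematoma and 3 in osteosarcoma. PECAM1, 1 of these markers, averaged 3.67 ± 0.24 (SD, n = 10) in hemangiosarcoma and 3.72 ± 0.21 (n = 5) in osteosarcoma, and VWF 4.96 ± 0.36 and 4.82 ± 0.07. At the RNA level these markers therefore did not show the hemangiosarcoma lines to be endothelial, whereas 9 of 10 mural and fibroblast markers lay above the array median in each cultured group. The paper states, from earlier work, that each hemangiosarcoma line and hematoma culture carried antigens typical of cells that form blood vessels. The part of these array and marker values in the results below was not tested.

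Viewed by function, the squalene to cholesterol and the fatty acid genes had their highest means in the cultured groups, with osteosarcoma at the top, while the mevalonate genes were level between cultured and primary cells. Each gene was centered on its mean over the 34 arrays and the genes of a group were averaged. The 11 squalene to cholesterol genes then averaged 1.07 ± 0.76 (SD, n = 5) in osteosarcoma, 0.82 ± 0.55 (n = 3) in hematoma and 0.29 ± 0.57 (n = 10) in hemangiosarcoma. In primary cells they averaged -0.54 ± 0.45 (n = 6) in diffuse large B cell lymphoma and -0.87 ± 0.39 (n = 6) in T-zone lymphoma. The fatty acid genes followed the same order of means, from 1.03 ± 0.66 in osteosarcoma to -1.28 ± 0.28 in T-zone lymphoma. The 6 mevalonate genes did not. They averaged 0.38 ± 0.64 in osteosarcoma, 0.17 ± 0.25 in diffuse large B cell lymphoma, 0.12 ± 0.55 in hematoma, -0.13 ± 0.25 in T-zone lymphoma and -0.19 ± 0.38 in hemangiosarcoma, with no test of these differences. Among the 5 diagnoses with over 2 arrays, osteosarcoma had the highest mean for 18 of the 34 genes, hematoma for 9, T-zone lymphoma for 3, diffuse large B cell lymphoma for 2 and hemangiosarcoma for 2, and these last were SOAT1 and ABCA1. Spread within a group was wide. The osteosarcoma line OSCA59 stood at -0.12 for the squalene to cholesterol genes, against 0.90 to 1.94 in the other osteosarcoma lines.

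**Figure D1:**
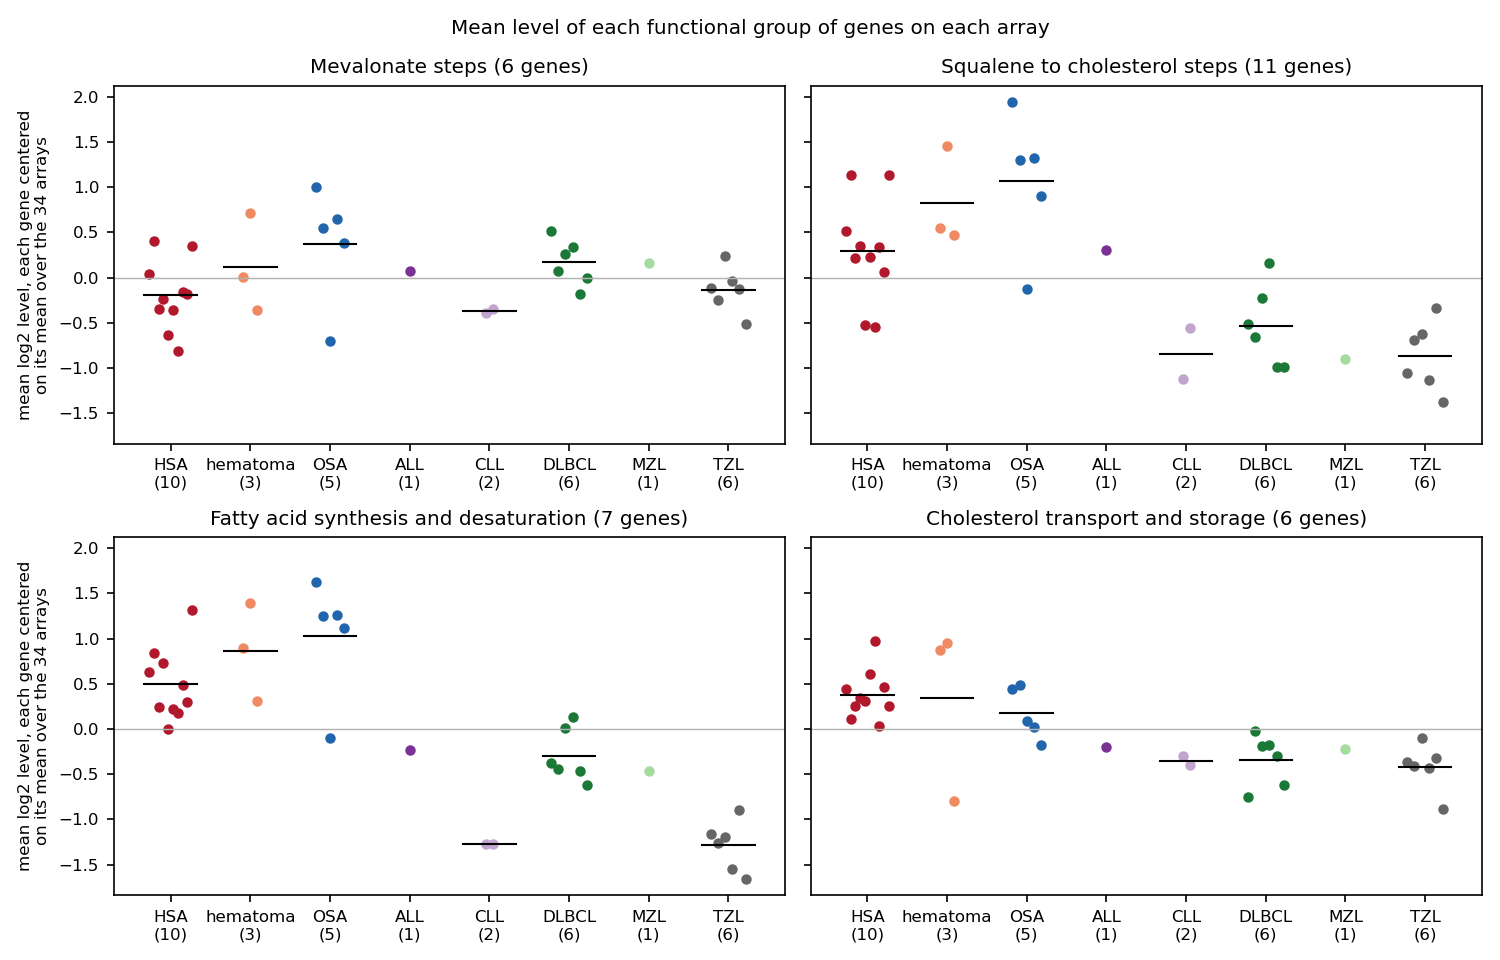
Mean log2 level of 4 functional groups of genes on each of the 34 arrays, each gene centered on its mean over all arrays (vertical axis), by diagnosis (horizontal axis, number of arrays in brackets; HSA, hemangiosarcoma; OSA, osteosarcoma; ALL and CLL, the acute and the chronic leukemias; TZL, T-zone lymphoma; MZL, marginal zone and DLBCL, diffuse large B cell lymphoma). Points are arrays and lines are group means. The squalene to cholesterol genes averaged 1.07 in osteosarcoma and -0.87 in T-zone lymphoma, with 1 osteosarcoma line at -0.12.

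Hemangiosarcoma and osteosarcoma lines, both cultured, were compared to set hemangiosarcoma against another malignant mesenchymal tumor. MVD, NSDHL, FDFT1 and other cholesterol genes were lower in the hemangiosarcoma lines, and SOAT1, which esterifies cholesterol, was higher. The SOAT1 call was lost without either of the osteosarcoma lines OSCA59 and OSCA75. ABCA1, which exports cholesterol, had a higher mean too. Its osteosarcoma values all lay below the array median, so that its call is given as a description only. At an adjusted p under 0.05 in limma with Benjamini-Hochberg adjustment over 22891 probe sets, 12 of 34 genes were lower in hemangiosarcoma, where 11.7% of all probe sets tested were lower, and 2 were higher, ABCA1 among them, where 16.1% of all were higher. The difference was negative for 30 of the 34, with a median of -0.49, against 0.03 over all probe sets tested. All 11 squalene to cholesterol genes, all 4 regulators and all 7 fatty acid genes had a negative difference, and 5, 2 and 3 of these passed. The spiked controls also separated these groups without overlap, as given above, so that control level and diagnosis cannot be told apart here.

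Of the mevalonate genes, MVD was the one that passed. It encodes the decarboxylase that makes isopentenyl diphosphate. Its values in the osteosarcoma lines were 9.67 in OSCA20, 9.78 in OSCA23, 7.67 in OSCA59, 9.86 in OSCA75 and 10.17 in OSCA71, and hemangiosarcoma ran from 7.30 over a median of 7.95 to 8.57. OSCA59 was the only osteosarcoma line within the hemangiosarcoma range. The difference was -1.47 (SE 0.33, adjusted p = 0.00476). FDPS, which makes farnesyl diphosphate, differed by -0.96 (SE 0.41, adjusted p = 0.0904) and HMGCS1, which makes HMG-CoA, by -0.88 (SE 0.42, adjusted p = 0.129), and neither passed. ACAT2, the cytosolic thiolase at the start of the pathway, differed by -0.41 (SE 0.40). The kinases MVK and PMVK were the 2 members of these steps with positive differences, 0.25 (SE 0.11, adjusted p = 0.105) and 0.06 (SE 0.16). For MVK the other probe sets gave -0.73 and -0.48, and for PMVK 1 of 2 others was called lower at -0.57, so no direction can be given for these kinases.

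Among the genes from squalene to cholesterol, 5 were lower. NSDHL, which removes a methyl group from lanosterol derivatives, stood at 10.22, 9.44, 7.51, 8.80 and 8.55 in OSCA20, OSCA23, OSCA59, OSCA75 and OSCA71, and at 6.39 to 8.24 with a median of 7.32 in hemangiosarcoma. Only OSCA59 lay within the hemangiosarcoma range, and the difference was -1.50 (SE 0.37, adjusted p = 0.00711). FDFT1, squalene synthase, was 11.00, 10.22, 9.03, 10.80 and 10.32 in the same order, against 8.03 to 10.02 with a median of 8.89, a difference of -1.34 (SE 0.35, adjusted p = 0.0104). SC5D, a desaturase of the last steps, differed by -1.27 (SE 0.32, adjusted p = 0.00932). TM7SF2, a sterol reductase, differed by -1.09 (SE 0.39, adjusted p = 0.0469) and MSMO1, a methyl sterol oxidase, by -1.03 (SE 0.33, adjusted p = 0.0281). The call of MSMO1 was lost without any of 3 osteosarcoma lines, and that of TM7SF2 without any of 10 of the 15 lines. SQLE, squalene epoxidase and a rate-limiting enzyme of the pathway, differed by -1.20 (SE 0.47, adjusted p = 0.0696), and its other probe sets by -1.23 and -1.27, without passing. The smallest differences were those of CYP51A1, the lanosterol demethylase, at -0.03 (SE 0.31), and HSD17B7, a sterol ketoreductase, at -0.06 (SE 0.47). Other CYP51A1 probe sets gave -0.24 and 0.90, and neither was called. LSS, lanosterol synthase, EBP, a sterol isomerase, and DHCR7, the last reductase of the pathway, lay at -0.33, -0.17 and -0.51, and none of them passed.

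SCAP and SREBF2 were both lower in the hemangiosarcoma lines. SCAP stood at 8.85, 9.43, 9.50, 9.68 and 9.38 in OSCA20, OSCA23, OSCA59, OSCA75 and OSCA71. In hemangiosarcoma it ran from 7.95 over a median of 8.19 to 9.23, and ChadG4 was the line that reached into the osteosarcoma range. The difference was -1.09 (SE 0.20, adjusted p = 0.00119). A second, dimmer probe set of SCAP gave -0.30 (adjusted p = 0.0955). SREBF2 was 9.84, 8.74, 8.06, 8.79 and 8.31 in the osteosarcoma lines and 6.16 to 8.34 with a median of 7.41 in hemangiosarcoma, a difference of -1.30 (SE 0.34, adjusted p = 0.0113). Its other probe sets gave -0.66 and -0.82, which did not pass, and with the mean of its 3 probe sets the adjusted p was 0.141. INSIG1 had the widest spread of the regulators, with an SD of 1.20 over the hemangiosarcoma lines and 1.96 over the osteosarcoma lines, and its difference of -1.16 (SE 0.74, adjusted p = 0.257) lay within that spread. SREBF1 differed by -0.39 (SE 0.15, adjusted p = 0.0665) and did not pass, while a dimmer probe set of it was called lower at -0.34 (adjusted p = 0.0217).

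FASN, SCD and FADS1 were the fatty acid genes that passed, all lower in hemangiosarcoma. FASN, fatty acid synthase, was 10.32, 10.28, 8.84, 10.42 and 10.22 in OSCA20, OSCA23, OSCA59, OSCA75 and OSCA71, and 8.43 to 9.58 with a median of 9.05 in hemangiosarcoma. Of the osteosarcoma lines only OSCA59 lay within the hemangiosarcoma range, and the difference was -0.96 (SE 0.25, adjusted p = 0.0101). SCD, the desaturase that makes oleic acid, differed by -0.90 (SE 0.28, adjusted p = 0.0241), and FADS1, which acts in the synthesis of arachidonic acid, by -0.64 (SE 0.23, adjusted p = 0.0476). The call of FADS1 was lost with 11 of the 15 arrays left out in turn and under 7 of 12 alternatives. Probe sets of these genes did not move together. Other probe sets of SCD gave 1.19 and 0.26, and of FASN 1.10, 0.12 and -0.91, of which only the last was called. ACLY, which supplies acetyl-CoA, and ACACA, which makes malonyl-CoA, lay at -0.20 and -0.14, but each had a dimmer probe set that was called higher in hemangiosarcoma, at 2.04 (adjusted p = 0.0139) and 1.48 (adjusted p = 0.0106). For ACLY, ACACA, SCD and FASN the direction therefore rests on the probe set read. ELOVL6, an elongase, and FADS2, a desaturase, differed by -0.47 (SE 0.58) and -0.44 (SE 0.38).

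The transport genes held the largest differences in both directions. NPC2, the soluble cholesterol carrier of the lysosome, stood at 12.25, 12.15, 12.05, 11.87 and 11.71 in OSCA20, OSCA23, OSCA59, OSCA75 and OSCA71, and at 9.50 to 11.05 with a median of 10.10 in hemangiosarcoma. The groups did not overlap, and OSCA59 was level with the other osteosarcoma lines here. The difference was -1.83 (SE 0.22, adjusted p = 7.19e-05), a 3.54-fold lower level, and the other probe set gave -1.79. ABCA1, the exporter of cholesterol to apolipoproteins, went the other way. Its values were 5.07, 5.10, 4.66, 4.08 and 4.13 in the osteosarcoma lines, all below the array median, and 5.69 to 9.99 with a median of 7.08 in hemangiosarcoma. The highest hemangiosarcoma line was Joey and the lowest DD1, and no line of either group reached into the other. The difference was 2.67 (SE 0.54, adjusted p = 0.00235), but the gene passed the filter on low values only through the hemangiosarcoma arrays, so that its size and call are given as a description. Another probe set gave 2.10 and lay too low to be tested. The third ABCA1 probe set gave 0.07, and the call was lost with the mean of all 3. SOAT1, which esterifies cholesterol for storage, was 6.92, 6.38, 5.13, 5.18 and 5.89 in the osteosarcoma lines against 6.35 to 8.33 with a median of 7.13, a difference of 1.27 (SE 0.35, adjusted p = 0.0152). Its groups overlapped through OSCA20 and OSCA23, and OSCA59 and OSCA75 lay below the array median. The SOAT1 call was lost without OSCA59, without OSCA75, and with the 6 golden retriever lines alone (adjusted p = 0.0823 by limma). ABCG1, NPC1 and STARD4, an export pump, the lysosomal partner of NPC2 and a sterol carrier of the cytosol, lay at -0.32, -0.26 and -0.29 and did not pass. Other probe sets of STARD4 gave 0.38, 0.23 and -0.0014, and that of ABCG1 gave 0.22. No direction can therefore be given for STARD4 and ABCG1.

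**Figure D2:**
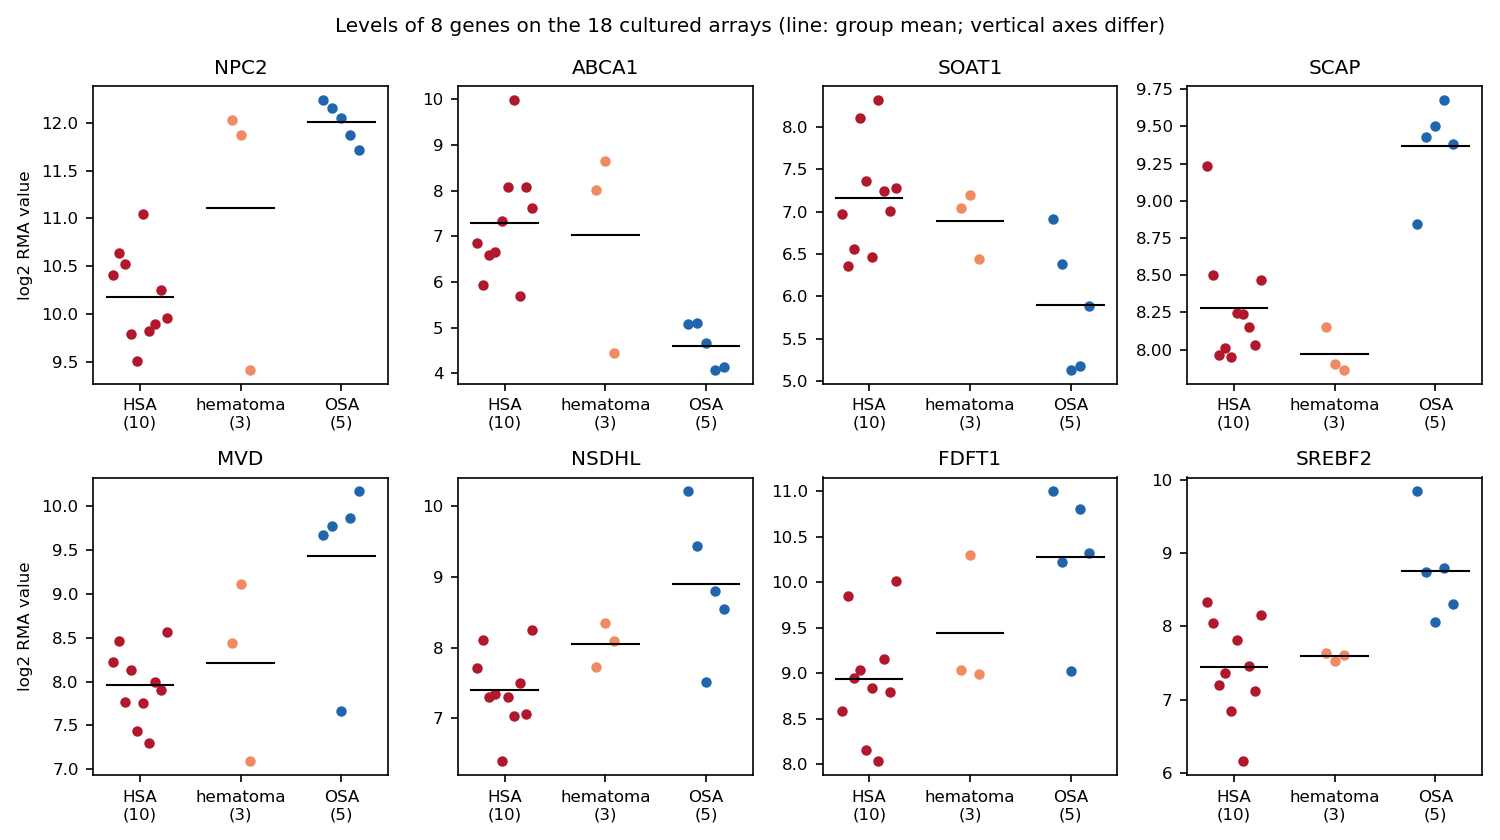
Log2 RMA values of 8 genes (vertical axes, which differ between panels) on the 18 arrays of cultured cells, by diagnosis (horizontal axis; HSA, hemangiosarcoma; OSA, osteosarcoma). Points are arrays and lines are group means. For NPC2 and ABCA1 the hemangiosarcoma and osteosarcoma points do not overlap, and for MVD, NSDHL and FDFT1 the lowest osteosarcoma point is OSCA59, at 7.67, 7.51 and 9.03.

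With the 6 golden retriever lines alone 8 genes passed, 7 lower and 1 higher, and breed and the smaller number of lines cannot be told apart in this count. Without ChadG4 and Dal4, hemangiosarcoma lines that stand apart in several of these genes, the call of FADS1 was the one that was lost (adjusted p = 0.0890). MVD, FDFT1, NSDHL, SCAP and NPC2 passed under each alternative and with each array left out.

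Hemangiosarcoma lines were also compared with the hematoma cultures, the contrast of malignant with nonmalignant cells. No gene of the list passed here, although 10 of the 11 squalene to cholesterol genes had a lower mean in hemangiosarcoma. By limma, 0 of 34 genes reached an adjusted p under 0.1, the level used for this contrast, which 0.266% of all 23336 probe sets tested reached, and 3 genes, FADS2, SC5D and ACACA, had an unadjusted p under 0.05. The difference was negative for 24 of 34 genes and for 10 of 11 squalene to cholesterol genes, with medians of -0.31 and -0.66, against 0.02 over all probe sets tested. The culture Baxter decided the first of these medians, which was 0.05 without it.

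The 3 most negative differences were those of INSIG1, FADS2 and NPC2. INSIG1, the sterol-sensing brake on SREBP processing, was 11.31 in Pippin, 11.66 in Baxter and 8.11 in Kylie, against 6.67 to 10.67 with a median of 8.87 in the hemangiosarcoma lines. Pippin and Baxter lay above every hemangiosarcoma line and Kylie below the median, and the difference was -1.41 (SE 0.82, adjusted p = 0.584). FADS2, the desaturase that opens the synthesis of long polyunsaturated fatty acids, was 7.09, 8.48 and 7.59 in the same order against 6.03 to 7.32, a difference of -1.04 (SE 0.30, unadjusted p = 0.00361, adjusted p = 0.290 by limma). NPC2 was 12.04, 11.88 and 9.41 against 9.50 to 11.05, so that Pippin and Baxter stood with the osteosarcoma lines and Kylie below all hemangiosarcoma lines. Its difference was -0.93 (SE 0.46, adjusted p = 0.533), and it passed only when Kylie was left out. ABCA1 split the cultures the same way, with Kylie at 4.45, Baxter at 8.65 and Pippin between them but nearer to Baxter. The most positive differences were those of NPC1 at 0.45 (SE 0.35), EBP at 0.32 (SE 0.36) and SCAP at 0.31 (SE 0.23), and none of them passed. Over the 6 transport genes as a group, Kylie stood at -0.79, against 0.88 in Pippin and 0.95 in Baxter.

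**Figure D3:**
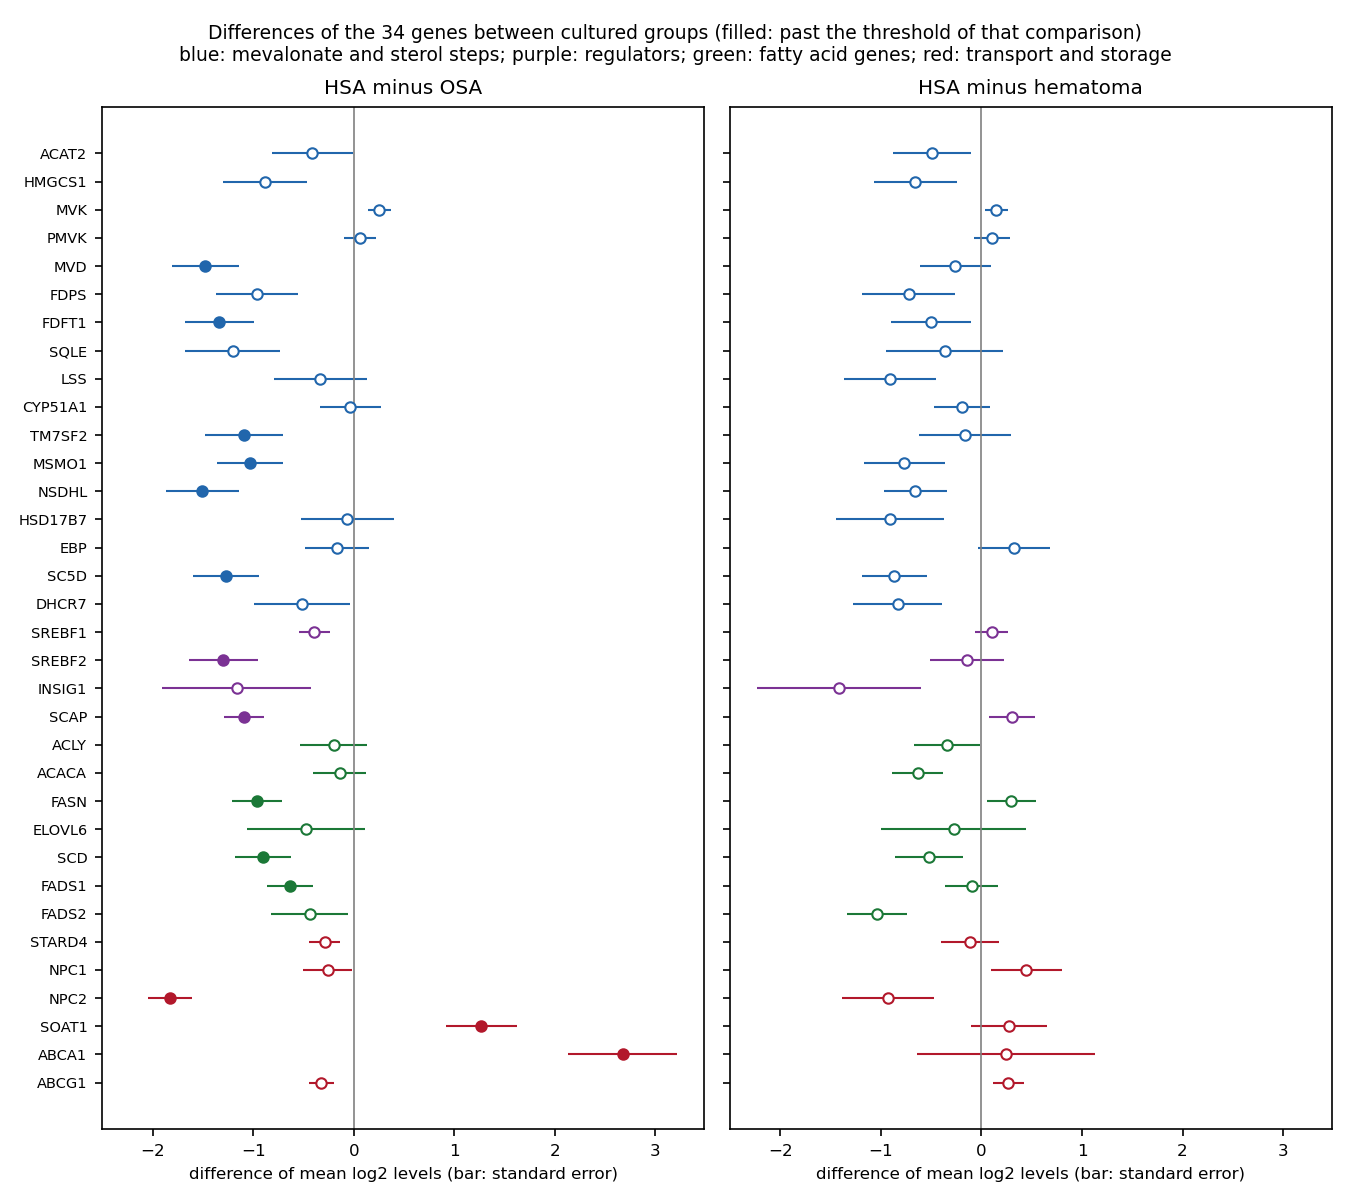
Difference of mean log2 levels (horizontal axes, bars are standard errors) of each of 34 genes between hemangiosarcoma (HSA, n = 10) and osteosarcoma (OSA, n = 5) lines, left, and between hemangiosarcoma lines and hematoma cultures (n = 3), right. Filled points passed the threshold of their comparison, 14 on the left and 0 on the right. On the left NPC2 lies at -1.83 and ABCA1 at 2.67.

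Osteosarcoma lines and hematoma cultures were set side by side as well. This contrast shares its arrays with those above. In osteosarcoma 3 of 34 genes were higher at an adjusted p under 0.1 (limma; 5.21% of all 23091 probe sets tested were higher) and 0 were lower (8.12% of all were lower). At an unadjusted p under 0.05, 5 genes stood out in limma, SCAP, SREBF2, FASN and ABCG1 higher and SOAT1 lower. SCAP stood at 8.15, 7.90 and 7.86 in Pippin, Baxter and Kylie, below every osteosarcoma line, and the difference was 1.40 (SE 0.23, adjusted p = 0.0252). A second, dimmer SCAP probe set gave 0.55 and was not called. SREBF2 was 7.64, 7.54 and 7.61, also below every osteosarcoma line, a difference of 1.15 (SE 0.37, adjusted p = 0.0986). Its other probe sets gave 0.40 and 0.32, which were not called, and the SREBF2 call was lost with the mean of its probe sets. FASN was 8.81, 9.20 and 8.26, a difference of 1.26 (SE 0.40, adjusted p = 0.0943). Other FASN probe sets gave 1.25, which was called, -0.03 and -1.22, and dimmer probe sets of ACLY and ACACA were called lower, at -2.79 (adjusted p = 0.0731) and -2.32 (adjusted p = 0.0561). The calls of SREBF2 and FASN were close to the threshold and were lost when any of 6 and 7 of the 8 arrays was left out, and that of SCAP when Kylie was. The next differences were MVD at 1.21 (SE 0.63), HSD17B7 at -0.84 (SE 0.49) and SOAT1 at -0.99 (SE 0.43), and ABCA1, at -2.43, lay too low on these arrays to be tested. For SREBF2 and SCAP the hematoma and hemangiosarcoma means were close, at 7.60 ± 0.05 (SD, n = 3) against 7.45 ± 0.66 (n = 10) and 7.97 ± 0.15 against 8.28 ± 0.39.

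Within the 10 hemangiosarcoma lines the squalene to cholesterol genes moved together from line to line. The mevalonate genes ACAT2, HMGCS1, MVD and FDPS moved with them, and MVK and PMVK did not. Median r with the squalene to cholesterol genes was 0.785 for ACAT2, 0.827 for HMGCS1, 0.853 for MVD and 0.776 for FDPS. Across the 55 pairs of the 11 squalene to cholesterol genes, the mean Pearson correlation was 0.635, and 72.7% of the pairs had r above 0.5. Across the 15 pairs of the 6 mevalonate genes the mean was 0.267, the median 0.0039 and the share 40.0%. Over all pairs of the 22850 probe sets above the array median on at least 3 of these arrays, the mean was 0.0045 and the share 12.1%. These values are descriptive, since all pairs share the same 10 arrays. The order of the lines was led by ChadG6 and Dal4, whose means for the 17 mevalonate and squalene to cholesterol genes were 0.88 and 0.86, and closed by Journey at -0.56 and Joey at -0.64. Without ChadG4 and Dal4 the mean correlation of the squalene to cholesterol genes was 0.759.

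SREBF2 was positively correlated with all 11 squalene to cholesterol genes, with r from 0.594 to 0.904. Its closest partners were FDPS (r = 0.948), SQLE (r = 0.904) and MVD (r = 0.859). Without its 2 farthest lines, ChadG4 and Joey, these values ranged from 0.819 to 0.891. INSIG1 was closest to SQLE (r = 0.804), SC5D (r = 0.774) and HMGCS1 (r = 0.764), and without Frog and Joey these were 0.805, 0.727 and 0.782. SREBF1 did not share the pattern, and its median r with the 11 genes was -0.09. SCD, ACLY and ACACA tracked the cholesterol genes, with median r of 0.812, 0.750 and 0.639, whereas FADS1 did not, with 0.01, although without ChadG4 and Dal4 its median r was 0.468. MVK and PMVK did not track the squalene to cholesterol genes either, with median r of -0.25 and -0.06. MVK, at 6.07 to 6.43, and SREBF1, at 6.30 to 7.02, lay not far above the array medians and had narrow ranges. Their correlations therefore carry little signal.

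Of the 6 transport and storage genes 4 were mostly negatively correlated with the squalene to cholesterol genes, a pattern picked out after the correlations were seen. ABCA1 and SOAT1 were negatively correlated with all 11 squalene to cholesterol genes, with median r of -0.48 and -0.39. STARD4 was so with all 11, at -0.36, and ABCG1 with 10 of 11, at -0.63. ABCG1 ran only from 6.21 to 6.97, not far above the array medians, and its correlations carry little signal. NPC2 was positively correlated with all 11, at 0.30, and NPC1 with 6 of 11, at 0.04. The ABCA1 values rest in part on 2 lines. Without Joey and DD1, the lines farthest from its median, ABCA1 was at 0.03 with CYP51A1, 0.02 with DHCR7 and 0.0041 with HSD17B7, and at -0.27 with FDFT1 and -0.17 with LSS, against -0.53 and -0.56 over all 10 lines. With NSDHL, MSMO1, SQLE and SC5D it stayed negative, at -0.33, -0.37, -0.52 and -0.67, against -0.37, -0.51, -0.74 and -0.71. With TM7SF2 and EBP it was more negative, at -0.66 and -0.51, against -0.48 and -0.40. Over the 16 primary arrays the squalene to cholesterol genes correlated less, with a mean r of 0.278 and 21.8% of pairs above 0.5, where all probe sets gave 0.0049 and 9.6%. The difference between the cultured and primary values was not tested.

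**Figure D4:**
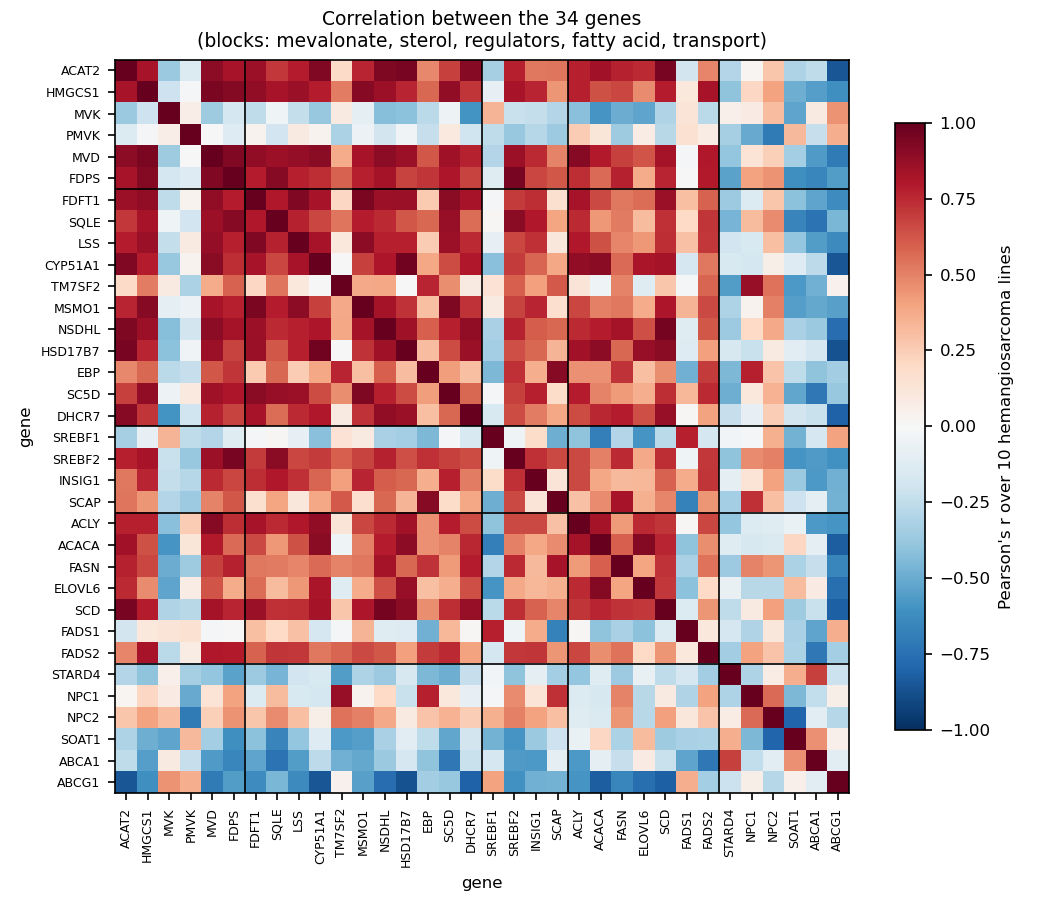
Pearson's correlation (color) between each pair of the 34 genes over the 10 hemangiosarcoma lines, with genes on both axes in the order mevalonate, squalene to cholesterol, regulators, fatty acid, and transport and storage, divided by lines. The squalene to cholesterol block has a mean r of 0.635, and the rows of ABCA1, SOAT1 and ABCG1 are mostly negative against it. ABCG1 has a narrow range, not far above the array medians.

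The hemangiosarcoma lines were next set against the 16 leukemias and lymphomas. SQLE, CYP51A1, DHCR7 and LSS of the squalene to cholesterol steps were higher in the cultured hemangiosarcoma cells. So were FADS1, SCD and ACLY of fatty acid synthesis, while SREBF2, SCAP and PMVK were lower. FADS2 had a higher mean too. Most of its primary values lay below the array median, so that its call is given as a description only. At an adjusted p under 0.001 (limma, over 23215 probe sets), 11 of 34 genes were higher, FADS2 among them. Of all probe sets tested 20.2% were higher. Another 3 genes were lower, where 18.4% of all were lower. All 11 squalene to cholesterol genes and all 7 fatty acid genes had a positive difference, and the median over the 34 was 0.61, against -0.08 over all probe sets tested. Culture, cell lineage and spiked control levels all differ between these groups and cannot be told apart.

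SQLE was 8.12 to 11.38 with a median of 10.43 in hemangiosarcoma and 5.95 to 10.62 with a median of 7.64 in the primary cells. The ranges overlapped, and the difference was 2.54 (SE 0.47, adjusted p = 3.53e-05). FADS1 ran from 11.05 to 12.27 (median 11.99) against 7.19 to 11.44 (median 9.52), a difference of 2.28 (SE 0.44, adjusted p = 6.49e-05). CYP51A1 differed by 1.95 (SE 0.32, adjusted p = 8.19e-06), DHCR7 by 1.72 (SE 0.35, adjusted p = 0.000115) and LSS by 1.07 (SE 0.21, adjusted p = 6.06e-05). The primary values of LSS, at 5.41 to 6.22, lay near the array medians. The other genes that were higher were FADS2 (1.50), NPC1 (1.34), SCD (1.33), SOAT1 (1.26), ACLY (1.03) and ACAT2 (0.92). FADS2 lay between 4.39 and 4.90 in T-zone lymphoma, below the array medians, and its size and call are given as a description. The call of SOAT1 was lost with 15 of the 26 arrays left out in turn and that of ACAT2 with 3, and each was lost under 4 alternatives. INSIG1 differed by 1.92 (SE 0.50) and did not pass at this threshold (adjusted p = 0.00181). ELOVL6, at 5.06 to 9.28 in hemangiosarcoma and 3.75 to 4.61 in primary cells, exceeded the array median on too few arrays of both groups to be tested.

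PMVK, phosphomevalonate kinase, was the gene with the smallest adjusted p. It ran from 7.89 to 8.65 (median 8.46) in hemangiosarcoma and from 9.32 to 9.95 (median 9.63) in primary cells, a difference of -1.19 (SE 0.09, adjusted p = 1.78e-11), and its other probe sets gave -1.15 and -1.63. SCAP differed by -1.12 (SE 0.22, adjusted p = 9.48e-05) and SREBF2 by -1.02 (SE 0.24, adjusted p = 0.000602). A second, dimmer SCAP probe set gave -0.01 (adjusted p = 0.954), and the SCAP call was lost with the mean of its probe sets and with the 6 golden retriever lines alone. With that mean SREBF2 had an adjusted p of 0.0636, and its call was also lost with 10 of the 26 arrays left out in turn. Some genes did not pass but had another probe set that was called. These were lower for ABCG1 (-2.86) and SREBF1 (-0.50), and higher for MSMO1 (1.19), SC5D (0.95) and ACACA (1.30). With the 6 golden retriever lines alone 6 genes passed, 5 higher and 1 lower, and without ChadG4 and Dal4 9 passed, 6 higher and 3 lower. PMVK, SQLE, LSS, CYP51A1 and NPC1 passed under each alternative and with each array left out.

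Across all 18 cultured and 16 primary arrays, ELOVL6 was the member whose every cultured array lay above every primary array, and PMVK the member whose every cultured array lay below. Of all 42924 probe sets, 2.53% were fully above and 1.96% fully below. With 1 of 34 members each, the list was close to these shares. PMVK was 8.65 in cultured cells at its highest and 9.32 in primary cells at its lowest, and ELOVL6 was 5.06 in cultured cells at its lowest and 4.61 in primary cells at its highest.

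Diffuse large B cell lymphoma, a B cell tumor, and T-zone lymphoma, a T cell tumor, gave a contrast within primary cells. FADS1, ACACA and SOAT1 were higher in diffuse large B cell lymphoma and NPC2 and SCAP were lower, while no mevalonate or squalene to cholesterol gene passed. At an adjusted p under 0.05 (limma, over 21792 probe sets), 3 of 34 genes were higher, where 9.13% of all probe sets tested were higher, and 2 were lower, where 9.31% of all were lower. The median difference over the 34 was 0.20, against 0.04 over all probe sets tested. Of 7 proliferation markers 4 were higher in diffuse large B cell lymphoma, and all 6 T cell markers were lower. Of 4 B cell markers 3 were tested and 1 was higher. Averaged on each array, the B cell markers overlapped, at 8.955 to 9.789 against 7.239 to 9.187 in T-zone lymphoma. The T cell markers averaged 8.997 to 9.652 against 11.41 to 12.01. Markers of the other lineage were thus well above the array medians in both groups. The part of these markers in the results was not tested.

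FADS1 ran from 9.55 to 11.44 with a median of 11.02 in diffuse large B cell lymphoma and from 7.19 to 9.49 with a median of 8.37 in T-zone lymphoma. The groups did not overlap, and the difference was 2.37 (SE 0.42, adjusted p = 0.00186), a 5.15-fold higher level. Its other probe sets gave 2.56 and 2.69, both called. FADS2 showed values of 4.82 to 7.14 against 4.39 to 4.90, a difference of 1.47, but exceeded the array median on too few arrays to be tested. ACACA was 6.96 to 8.65 with a median of 7.57 against 6.28 to 7.48 with a median of 6.53, a difference of 1.08 (SE 0.29, adjusted p = 0.0198). Thunder was the T-zone lymphoma that reached into the other range. The ACACA call was lost with the mean of all its probe sets. ACLY differed by 0.81 (SE 0.27, adjusted p = 0.0512), SCD by 0.89 (SE 0.42, adjusted p = 0.173) and FASN by 0.40 (SE 0.24, adjusted p = 0.277), and none of these passed.

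SOAT1 was 5.39 to 7.57 with a median of 6.63 in diffuse large B cell lymphoma and 4.96 to 6.15 with a median of 5.41 in T-zone lymphoma, a difference of 1.18 (SE 0.34, adjusted p = 0.0262). NPC2 was 8.40 to 10.04 with a median of 8.83 against 9.29 to 11.00 with a median of 10.36, a difference of -1.36 (SE 0.32, adjusted p = 0.0101), and its other probe set gave -1.48. The ranges of both genes overlapped. SCAP differed by -0.88 (SE 0.27, adjusted p = 0.0386), and its call was lost without any of 9 of the 12 arrays, as that of SOAT1 was without any of 5. ABCG1 did not pass, but a second, dimmer probe set of it was called lower in diffuse large B cell lymphoma, at -1.89 (adjusted p = 0.0172). FADS1 and NPC2 passed under each alternative and with each array left out. The cholesterol genes CYP51A1 at 1.04 (SE 0.41, adjusted p = 0.0930), MSMO1 at 0.84 (SE 0.33, adjusted p = 0.0993) and HMGCS1 at 0.90 (SE 0.43, adjusted p = 0.178) did not pass.

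**Figure D5:**
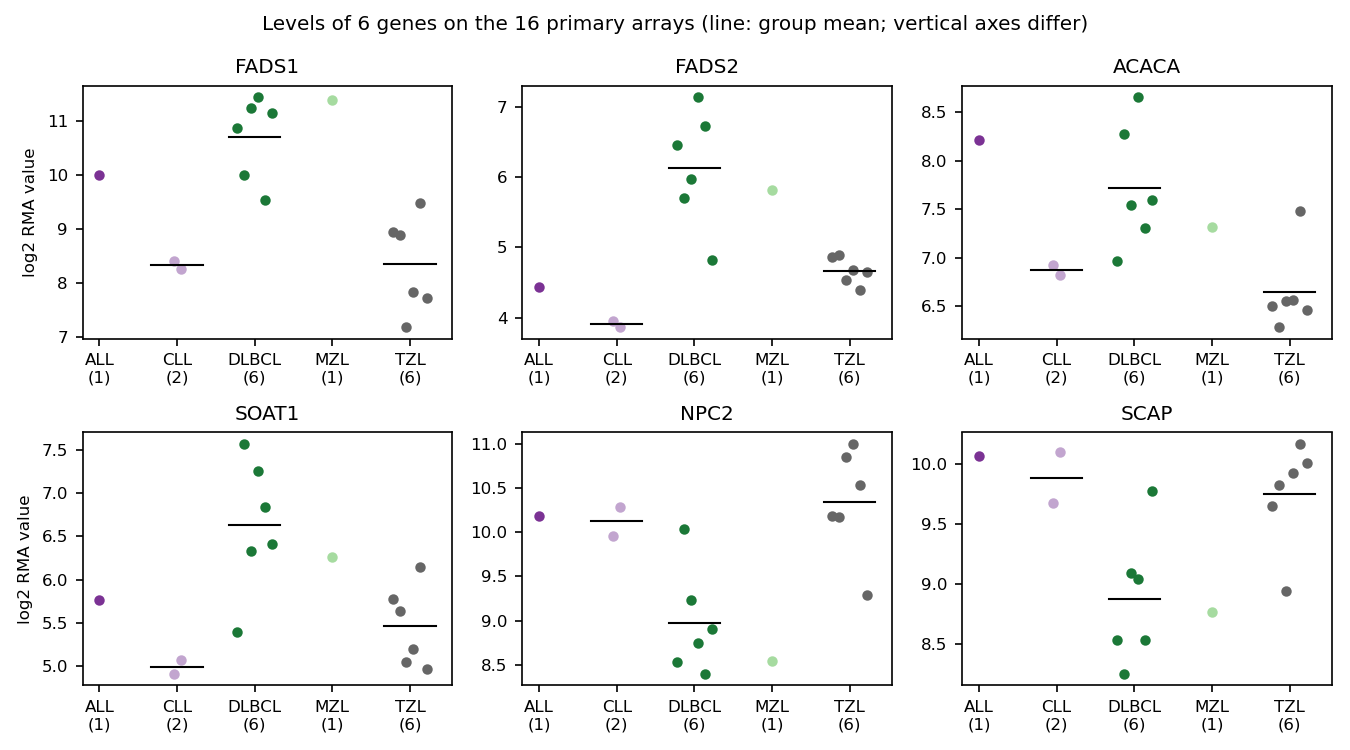
Log2 RMA values of 6 genes (vertical axes, which differ between panels) on the 16 arrays of primary cells, by diagnosis (horizontal axis, number of arrays in brackets; ALL and CLL, the acute and the chronic leukemias; TZL, T-zone lymphoma; MZL, marginal zone and DLBCL, diffuse large B cell lymphoma). Points are arrays and lines are group means. FADS1 does not overlap between DLBCL, at 9.55 to 11.44, and TZL, at 7.19 to 9.49.

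The diagnoses with 1 or 2 arrays allow values only. The actin difference was 0.79 in the acute leukemia and, in the chronic leukemias, 0.52 in Maddle and 1.20 in Forrest, the highest of all arrays. Its part in these values was not tested. In the acute lymphoblastic leukemia INSIG1 was 10.42, SQLE 10.62 and FDFT1 10.28. The chronic lymphocytic leukemias Maddle and Forrest had INSIG1 values of 4.25 and 4.68, the lowest of the 34 arrays. Their FADS2 values were 3.96 and 3.87, and their DHCR7 values 4.65 and 5.56. In the marginal zone B cell lymphoma FADS1 was 11.40, within the range of diffuse large B cell lymphoma.

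Other genes of these pathways were read from 3 lists, of further synthesis genes (14 with a probe set), further regulators (12) and further uptake, transport and storage genes (22). Between hemangiosarcoma and osteosarcoma lines, 1 synthesis gene was higher and 4 lower, 5 regulators were higher and 2 lower, and 1 transport gene was higher and 4 lower. Of the 39 tested these were 17.9% higher and 25.6% lower, beside 16.1% and 11.7% of all probe sets. CYP27A1, which makes 27-hydroxycholesterol, differed by -2.48 (SE 0.29, adjusted p = 6.4e-05) and FABP3, a fatty acid carrier, by -2.93 (SE 0.80, adjusted p = 0.0134). NR1H3, the liver X receptor that turns on ABCA1, differed by -1.48 (SE 0.31, adjusted p = 0.00305), and MYLIP, a ubiquitin ligase that is a target of NR1H3, by -1.68 (SE 0.55, adjusted p = 0.0328). SCARB1, a receptor for high density lipoprotein, differed by -1.51 and ACSS1, a mitochondrial acetyl-CoA synthetase, by -1.64, and both were called. Against hematoma no gene of the 3 lists passed. Between osteosarcoma and hematoma, 2 synthesis genes, 2 regulators and 1 transport gene were higher and 1, 2 and 0 lower (12.5% and 7.5% of 40 tested, beside 5.21% and 8.12% of all probe sets), led by CYP27A1 at 2.19 (SE 0.49, adjusted p = 0.0450). Between the lymphomas, 2 synthesis genes, 0 regulators and 1 transport gene were higher and 2, 1 and 1 lower (8.11% and 10.8% of 37 tested, beside 9.13% and 9.31%). Among these ACSL1, which activates fatty acids, differed by -1.72 (SE 0.23, adjusted p = 0.000236) and FABP5, a fatty acid carrier, by 1.42 (SE 0.40, adjusted p = 0.0252). Between hemangiosarcoma and the leukemias and lymphomas, 2, 5 and 2 genes of the lists were higher and 1, 2 and 3 lower (23.7% and 15.8% of 38 tested, beside 20.2% and 18.4%).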

How the data were processed

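RNA from 34 samples had been hybridized to Affymetrix Canine_2 arrays. The deposited log2 values are those the authors obtained with RMA (affy; versions not given in the sources used here), 1 column per sample, with 43035 probe sets. RMA sets every array to one distribution, so that shifts of all genes together are removed. The 111 control probe sets, by their names, were left out of the tests. Groups were taken from the tumor type labels. Each contrast was fitted in limma 3.58.1 (R 4.3.3) on its own groups, keeping probe sets that exceeded the array median in a number of arrays no lower than the size of the smaller group, with Benjamini-Hochberg adjustment over all of them. Thresholds were an adjusted p of 0.1 for contrasts with hematoma, 0.05 between hemangiosarcoma and osteosarcoma and between the lymphomas, and 0.001 for hemangiosarcoma against leukemia and lymphoma. Members passing these were named, with the 3 largest differences in each direction where none or few passed, and at most 6 genes from the further pathway lists. The members and lists were chosen with earlier results of these data known. The script was tested on simulated data. Precision is limited by the number of arrays, and where nothing shows separate cultures per line, p-values measure the spread between arrays. Alternatives varied the filter, probe set, centering, test, array weights, arrays in the fit, breed and each array left out. A planned promoter motif search was not run.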

Additional observations from a re-analysis of the deposited data

Results flagged for a closer look

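For each gene and each diagnosis with 4 to 10 arrays, the gap between the most extreme array and its nearest neighbour was compared with the range of the group, and 15 of 136 such tests passed the critical value at which chance flags about 1 in 20. In the osteosarcoma line OSCA59, MVD stood at 7.67 (other lines 9.67 to 10.17), SQLE at 10.13 (11.66 to 12.12), EBP at 8.80 (10.06 to 10.49) and FASN at 8.84 (10.22 to 10.42), each the lowest of the group. PMVK was lowest in OSCA71, at 7.70 (8.49 to 8.62). In the hemangiosarcoma line Dal4, CYP51A1 stood at 12.03 (10.55 to 11.27), HSD17B7 at 9.26 (5.79 to 7.58) and ELOVL6 at 9.28 (5.06 to 6.90), each the highest, and SCAP was highest in ChadG4, at 9.23 (7.95 to 8.50).

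Among the T-zone lymphomas, Fire had the lowest CYP51A1, at 7.54 (8.57 to 9.08), and the lowest ACLY, at 9.44 (10.42 to 10.99). Rose had the highest DHCR7, at 8.60 (4.85 to 6.22), and the highest FASN, at 9.55 (8.42 to 8.78). TM7SF2 was highest in Niki, at 6.79 (6.14 to 6.32), and ACACA in Thunder, at 7.48 (6.28 to 6.57).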

How the results depend on the processing

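Between hemangiosarcoma and osteosarcoma 14 genes were called, 8 with the 6 golden retriever lines alone, and 10 to 16 with 1 array left out, with median differences from -0.84 to -0.40. With the mean of all probe sets of a gene the differences of SCD and MVK turned to 0.18 and -0.32. Against hematoma 0 genes were called, 0 to 1 with 1 array left out, the 1 being NPC2 without Kylie, and the median ran from -0.64 to 0.052, the last without Baxter. Between osteosarcoma and hematoma 3 genes were called, 1 with the mean of all probe sets, 1 without probe sets that can match several transcripts, 1 with centered arrays, 6 with array weights, 5 with all 34 arrays in the fit, and 1 to 5 with 1 array left out. Their median ran from -0.018 to 0.59, the lowest without Kylie. Between the lymphomas 5 genes were called, 3 by Student's test in place of limma, and 3 to 9 with 1 array left out, the most without Chieftain, with medians from 0.083 to 0.30. Against leukemia and lymphoma 14 genes were called, 6 with golden retriever lines alone, 9 without ChadG4 and Dal4, and 12 to 16 with 1 array left out, with medians from 0.55 to 0.68. Leaving out samples also lowers the power of a test, and other causes were not tested. No paired analysis was possible because the labels give no replicate numbers that groups share. With 3 hematoma arrays, contrasts with that group have little precision, and genes near or below the array median are measured with little signal over background.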
